A study of Mus musculus with 18 samples.

Results

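The transcriptomes of mouse skin flaps over D150L150 spacers were compared with those of flaps over D100L150 spacers, 3 libraries against 3, which are 6 of the 18 libraries of the series. The spacers were meshes made by near-field electrostatic printing with varied diameters and spacings, laid under the flap, and the skin was collected on day 7. In the labels these groups carry the numbers 150 and 150, and 100 and 150, after the letters D and L, so they share the L number and differ in the D number. Neither the unit nor the meaning of the letters is stated in the labels. Strain, sex and age of the mice are not given in them, nor whether each library is a different animal, so the p-values measure only the spread between these libraries. The remaining groups were flaps with no spacer (Control) and flaps over D15L100, D15L150 and D15L200 spacers, with 3 libraries each. Of 27743 genes in the table, 13078 reached an FPKM (fragments scaled to gene length and to the library's total) of 1 in at least 3 of the 18 libraries and were tested, and 14665 did not.

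A skin flap keeps its own vessels while it is lifted from its bed, and a material laid under it meets wound fluid, blood cells and the connective tissue of both surfaces. The usual sequence after such surgery runs from a clot through neutrophils and macrophages to fibroblasts, new vessels and a resurfacing epidermis, while macrophages that meet an implanted material can fuse into giant cells. Mouse skin also holds hair follicles with sebaceous glands, a fat layer and a thin sheet of skeletal muscle, the panniculus carnosus. In whole tissue, fewer cells of a type and less RNA per cell cannot be told apart.

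Epidermal keratins, the check on the tissue label, were abundant in all 6 libraries: Krt5, a keratin of basal keratinocytes, lay between 1239.5 and 2516 FPKM, and Krt14, its partner, between 3336 and 4554 FPKM. Recovered fragment totals ran from 28422344 to 32834376 in these 6 libraries. Of these, 3 libraries stood apart, and list medians that they move strongly are given with and without them. D100L150 replicate 1 had the highest level among all 18 libraries (mean log2(FPKM + 1) over a list's tested genes) for several lists. Among these were neutrophil genes, hypoxia and glycolysis genes, and immediate early genes. Its level was the lowest of the 18 for adipocyte, mast cell, lymphocyte, and fibroblast and collagen genes. In D100L150 replicate 3 the skeletal muscle level was 8.44, against 5.03 to 6.53 in the other 5. Over all 18 libraries this level ran from 5.03 to 8.85, so 8.44 stood apart among these 6 but was not an extreme of the series. D150L150 replicate 3 had the highest sebaceous level of the 18, at 5.42.

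No gene passed an adjusted p of 0.05 in either direction (0% of 13078 genes, limma with Benjamini-Hochberg adjustment). The smallest adjusted p was 0.953, and every gene named here with an unadjusted p under 0.05 had that adjusted value. At an unadjusted p under 0.05 there were 288 genes (2.2%), 231 of them higher in D150L150 (1.77%) and 57 lower (0.436%), while 654 would be met if every p were uniform. A second tool, voom on the fragments recovered from the FPKM values, also called 0 genes and had 284 at an unadjusted p under 0.05. Leaving out D100L150 replicate 2 gave 1395 such genes, D150L150 replicate 2 gave 688, D100L150 replicate 1 gave 91 and D150L150 replicate 3 gave 112, with 0 called each time.

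**Figure D1:**
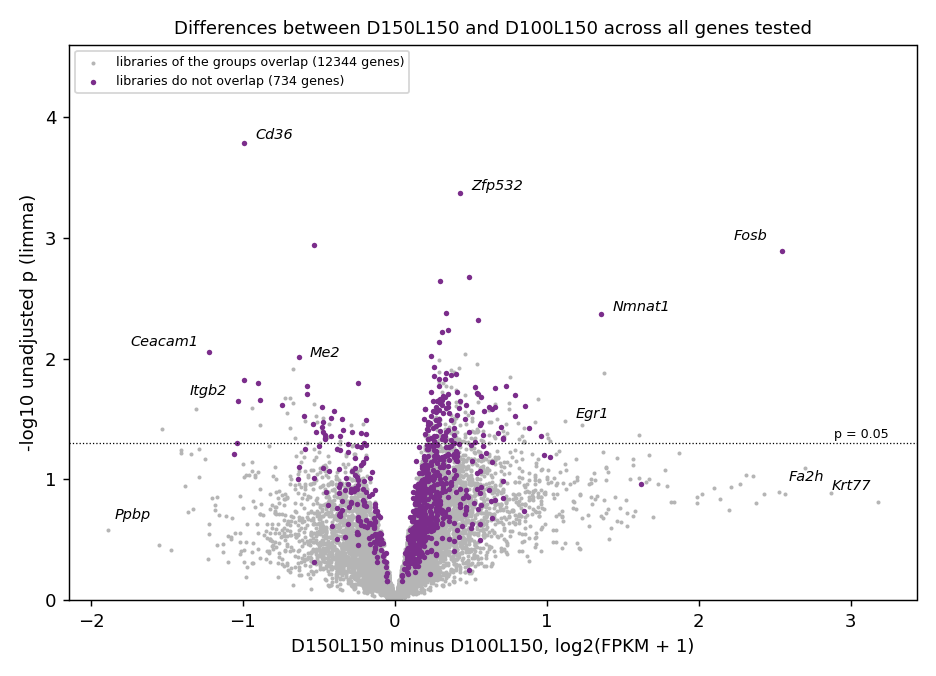
Log2 difference of D150L150 minus D100L150 (horizontal axis, log2(FPKM + 1) scale) against the unadjusted p on a −log10 axis for 13078 genes. No point passes an adjusted p of 0.05, and the smallest p, 0.000163, belongs to Cd36.

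Most genes were measured closely enough to bound the difference in FPKM + 1. The differences had a median of 0.05 and quartiles of −0.06 and 0.17 on the log2(FPKM + 1) scale, which understates differences of genes with low FPKM. For 12052 genes (92.2%) the difference lay within 0.5 in either direction, while 119 genes lay above 1 and 43 below −1. The 95% interval stayed within a 2-fold difference in FPKM + 1 for 10798 genes (82.6%) and reached 4-fold for 483 (3.69%). Near or under 1 FPKM such an interval does not bound the fold difference in FPKM itself. Krt2, for example, met it at 0 to 0.293 FPKM. Differences were positive for 61.6% of genes, and for 49% after each library was centred on its median, so the share above 0 depends on the scaling. Counts of positive differences in the lists below stand beside the 61.6%.

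Libraries of one group lay about as far apart as libraries of different groups. The root mean square distance over all tested genes was 0.53 to 0.72 between D100L150 libraries, 0.37 to 0.6 between D150L150 libraries, and 0.3 to 0.91 across the groups. The closest pair of all was D100L150 replicate 2 and D150L150 replicate 1, at 0.3, which belong to different groups. The most distant pair was D100L150 replicate 1 and D150L150 replicate 3, at 0.91. The within-group SD was larger in D100L150 for 60% of genes, with a median of 0.209 against 0.169 in D150L150.

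**Figure D2:**
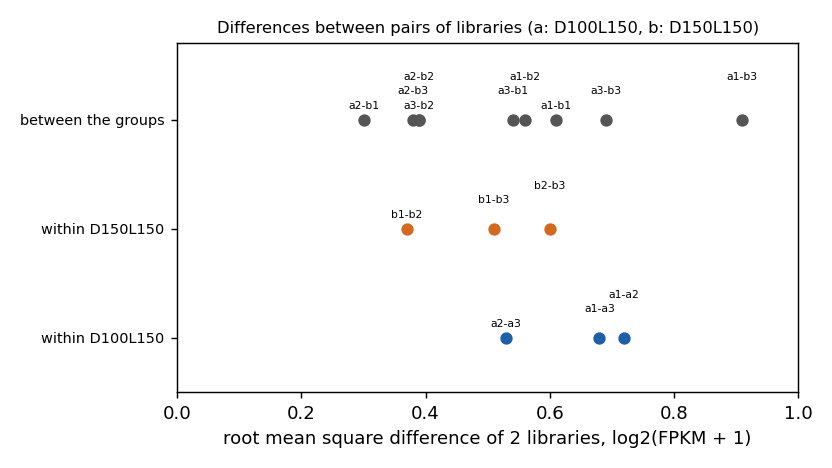
Root mean square difference in log2(FPKM + 1) over 13078 genes (horizontal axis) for each pair of the 6 libraries, by group. In the point names a is D100L150 and b is D150L150; the smallest value, 0.3, joins libraries of different groups.

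The libraries of the 2 groups did not overlap for 734 genes (5.61%), 574 higher in D150L150 (4.39%) and 160 lower (1.22%). Among the former was Fosb, an AP-1 transcription factor subunit encoded by an immediate early gene, a class of genes switched on within minutes of growth factor, stress or mechanical signals and needing no new protein for it. Factors of the CREB/ATF family, which act at many such genes, bind sites with a TGACG core. The start regions of Fosb and of its paralogue Fos are shown because these had the largest differences among the AP-1 genes listed here, although neither passed the test. Each is the RefSeq GRCm38.p6 window of 300 bases from 250 before to 50 after the start, 5′ to 3′ along the gene, with TGACG in capitals (searched on both strands).
Fosb (chr7:19309996-19310295, minus strand): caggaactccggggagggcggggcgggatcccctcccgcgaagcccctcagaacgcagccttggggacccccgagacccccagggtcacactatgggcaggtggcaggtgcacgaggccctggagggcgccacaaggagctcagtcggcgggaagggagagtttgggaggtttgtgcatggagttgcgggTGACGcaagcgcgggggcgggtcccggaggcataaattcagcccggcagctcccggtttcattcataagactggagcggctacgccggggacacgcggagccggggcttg
Fos (chr12:85473640-85473939, plus strand): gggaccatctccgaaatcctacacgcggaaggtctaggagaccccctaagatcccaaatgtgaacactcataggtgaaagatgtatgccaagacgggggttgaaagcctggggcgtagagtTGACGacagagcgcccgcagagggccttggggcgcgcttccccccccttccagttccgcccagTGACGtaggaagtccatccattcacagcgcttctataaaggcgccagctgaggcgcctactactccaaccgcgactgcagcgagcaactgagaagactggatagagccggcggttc
The Fosb window held 1 match, 60 bases before the window's start, and the Fos window held 2, 129 and 66 bases before its own. The annotated Fosb gene runs to 19310118 on this minus strand, past the start used for its window. The Fosb match therefore lies within the annotated gene span. The same letters occurred in 20.8% of 32851 start windows, so a match describes the sequence and shows no bound factor.

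Fosb (chromosome 7, 19302696 to 19310118, GRCm38.p6) was at 9.08, 3.62 and 0.945 FPKM in D100L150 replicates 1, 2 and 3. In D150L150 it was at 47.7, 25.8 and 13 FPKM. Every D150L150 library was above every D100L150 library, and within each group the libraries still spread several-fold. Its log2 difference was 2.55 ± 0.64 (SE, 95% interval 1.18 to 3.91, n = 3 and 3, unadjusted p = 0.00129 and adjusted p = 0.953 in limma). With any 1 library left out the difference ran from 1.95, without D100L150 replicate 3, to 3.13, without D100L150 replicate 1. In D15L150 flaps Fosb averaged 10.4 ± 1.27 FPKM (SD, n = 3) and in Control flaps 1.68 ± 0.993, so the D150L150 mean of 28.8 ± 17.6 was the highest of the 6 group means and D100L150, at 4.55 ± 4.15, lay between Control and D15L150.

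Fos itself, the dimer partner of the Jun proteins, was at 189, 101 and 31.3 FPKM in D100L150 and at 386, 207 and 133 FPKM in D150L150. Here the groups overlapped, since D100L150 replicate 1 exceeded D150L150 replicate 3 (difference 1.37 ± 0.67, unadjusted p = 0.059 in limma). Egr1, a zinc finger immediate early factor, was at 81, 35.1 and 15.1 FPKM in D100L150 and at 103, 67.7 and 66.7 in D150L150. Its difference was 1.12 ± 0.47 (unadjusted p = 0.033), again with overlapping groups. Over the 21 immediate early genes, 15 differences were positive and 6 negative, 0 passed the test, and the median was 0.25 against 0.05 over all genes. The negative ones were Klf2 (−0.62), Fosl1 (−0.39), Nr4a3 (−0.35), Atf3 (−0.29), Ier3 (−0.27) and Klf6 (−0.12). The list's level was 5.7, 4.6 and 4.29 in D100L150 and 5.46, 5.44 and 4.66 in D150L150, and the 5.7 of D100L150 replicate 1 was the highest of the 18. The median of 0.25 was 0.6 without D100L150 replicate 1 and 0 without D100L150 replicate 3. It was 0.1 without D150L150 replicate 1 and 0.36 without D150L150 replicate 3.

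**Figure D3:**
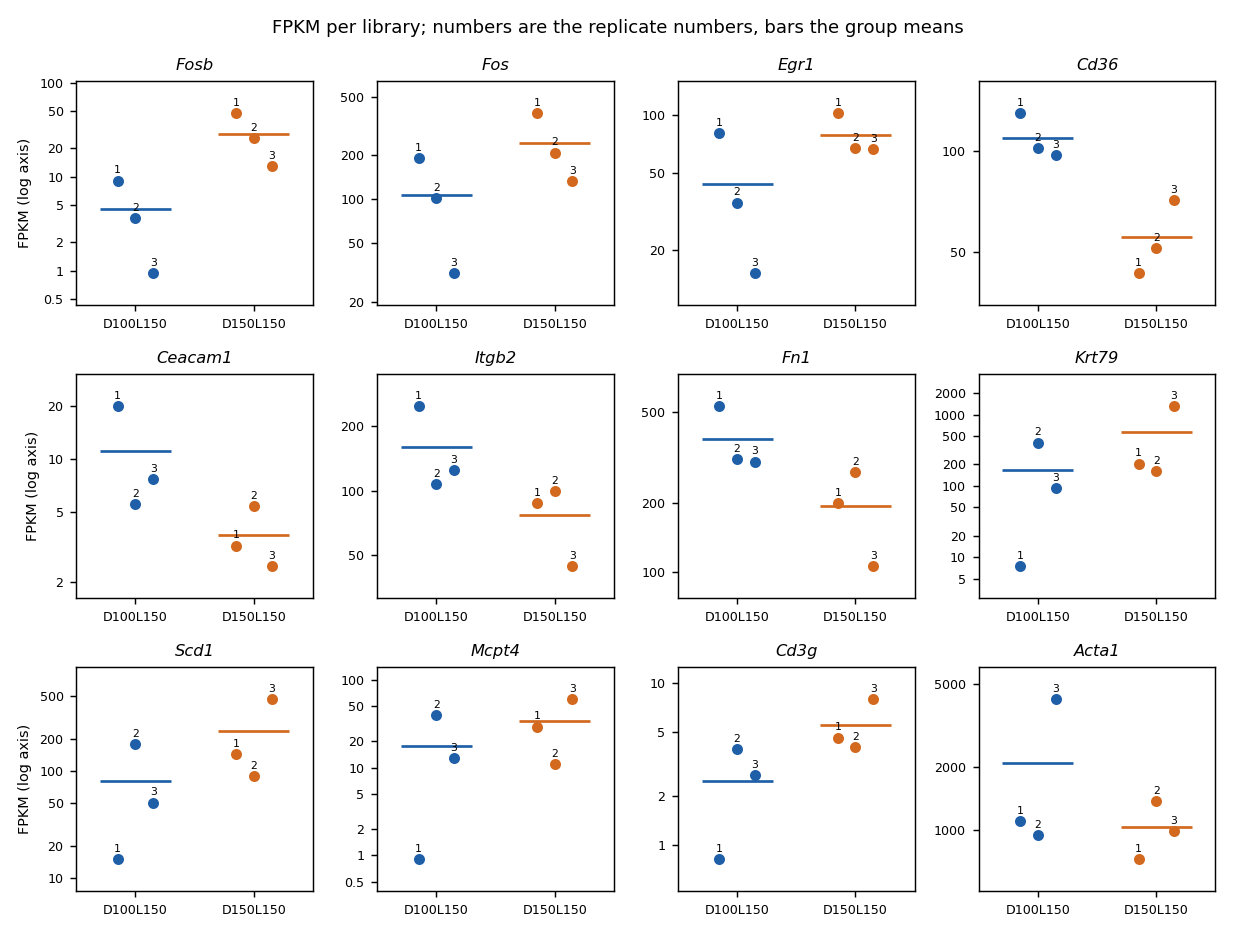
FPKM of selected genes in each of the 6 libraries on logarithmic vertical axes, with points numbered by replicate and bars at the group means. Fosb is higher in all 3 D150L150 libraries, from 13 to 47.7 FPKM, and Cd36 is higher in all 3 D100L150 libraries, from 97.2 to 129.7 FPKM.

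Cd36 had the smallest p of all genes in the fit used here, but not in every alternative. The smallest p belonged to Chl1 with the 6 libraries alone, and to Fosb without D100L150 replicate 1. Cd36 encodes a scavenger receptor and fatty acid transporter of macrophages, adipocytes and small-vessel endothelium, and lies on chromosome 5, 17781690 to 17888959. D100L150 libraries had 129.7, 102 and 97.2 FPKM, and D150L150 libraries had 43.3, 51.3 and 71.2 FPKM. The groups were separated by a gap from 71.2 to 97.2 FPKM, and the difference was −0.99 ± 0.2 (95% interval −1.41 to −0.57, n = 3 and 3, unadjusted p = 0.000163 and adjusted p = 0.953 in limma). It stayed between −1.19 and −0.83 when any 1 library was left out. The D15L150 mean, 60.1 ± 11.4 FPKM (SD, n = 3), and the Control mean, 68.2 ± 3.69, lay near the D150L150 mean of 55.3 ± 14.4 and below the D100L150 mean of 109.5 ± 17.6.

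The next genes are also named for low p-values and separate libraries. Itgb2, the shared beta chain of the leukocyte integrins (chromosome 10, 77530329 to 77565708), was at 249.8, 107 and 125 FPKM in D100L150 and at 87, 99 and 44.2 FPKM in D150L150. Its difference was −1.03 ± 0.4 (unadjusted p = 0.0223), and its alpha partner Itgam had overlapping groups, with a difference of −0.92 ± 0.52. Itgb2 means in the other 4 groups ran from 69.4 to 82.1 FPKM, around the D150L150 mean of 76.7 and below the D100L150 mean of 161. Adgre5, an adhesion receptor of leukocytes, was at 88.1, 47.6 and 43.4 against 28.7, 40.6 and 23.1 FPKM (−0.9 ± 0.33, unadjusted p = 0.016). Cd300a, an inhibitory receptor of myeloid cells, was at 32.5, 39.5 and 26 against 20.5, 24.2 and 19.3 FPKM (−0.58 ± 0.22, unadjusted p = 0.0195). For Itgb2 and Adgre5 the value in D100L150 replicate 1 was the highest of the 6, whereas for Cd300a the highest was D100L150 replicate 2.

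Ceacam1, an adhesion molecule of epithelia, vessels and leukocytes (chromosome 7, 25461702 to 25477647), was at 19.9, 5.57 and 7.71 FPKM in D100L150 and at 3.23, 5.38 and 2.48 in D150L150. Its difference was −1.22 ± 0.4 (unadjusted p = 0.00877), and −0.74 without D100L150 replicate 1, the highest library. Its close paralogue Ceacam2 may share reads with it. Ceacam1 means in the other 4 groups ran from 3.33 to 3.91 FPKM, around the D150L150 mean of 3.7 and below the D100L150 mean of 11.1. Me2, the mitochondrial malic enzyme, and Sh3bp5, a binding protein of the Btk kinase, had differences of −0.63 ± 0.21 and −0.58 ± 0.21. S100a4, a calcium-binding protein of migrating fibroblasts and myeloid cells, was at 680.5, 429.8 and 480.1 against 329, 427 and 289 FPKM (−0.6 ± 0.25). The plasma membrane calcium pump gene Atp2b1 and the junctional adhesion gene Jam2 followed with −0.48 ± 0.19 and −0.4 ± 0.16. For Jam2, unlike Ceacam1, the D150L150 mean of 3.75 FPKM was the lowest of the 6 group means. Each of these genes had 3 D100L150 libraries above the 3 D150L150 libraries, which was the condition for naming it.

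Genes with higher values in D150L150 and the smallest p-values had mostly small differences. Zfp532, a zinc finger gene, was at 2.79, 2.62 and 2.62 FPKM in D100L150 and at 3.93, 3.49 and 4.46 in D150L150 (0.43 ± 0.09, unadjusted p = 0.000427). Its means were 2.68 and 3.96 FPKM in these groups, with the other 4 groups between them. Nmnat1, which makes NAD in the nucleus (chromosome 4, 149467569 to 149485210), had the largest difference of this set after Fosb. It was at 5.42, 1.84 and 2.27 FPKM against 7.06, 12.6 and 8.18, a difference of 1.36 ± 0.4 (unadjusted p = 0.0043). Nmnat1 means in the other 4 groups ran from 7.56 to 13.3 FPKM, around the D150L150 mean of 9.28 and above the D100L150 mean of 3.18. Ankrd54 (0.3 ± 0.08), Pigu of the GPI anchor transamidase (0.31 ± 0.1), the ubiquitin ligase gene Ube4b (0.24 ± 0.08) and Cnot2 of the CCR4-NOT deadenylase (0.26 ± 0.09) had differences below 0.5. Bdh2, a short-chain dehydrogenase gene, stood at 0.55 ± 0.17.

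The epidermal lists gave no called gene. Of 11 basal keratinocyte genes, 8 had positive differences, with a median of 0.22, or 0.09 without D100L150 replicate 2 and 0.12 without D150L150 replicate 3. Krt5 was at 1239.5, 1626 and 1399 FPKM in D100L150 and at 1841, 1760.1 and 2516 in D150L150, without overlap (0.51 ± 0.41, unadjusted p = 0.235). The other non-overlapping member was Trp63, the master factor of stratified epithelium, at 18.1, 20.9 and 17.7 against 22, 22.1 and 33.8 FPKM. These 2 of 11 stand beside 4.39% of all genes.

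Of 28 suprabasal and cornified envelope genes, 21 were positive with a median of 0.26, and only 2 had an interval within 2-fold. That median was 0.08 without D100L150 replicate 3, 0.11 without D150L150 replicate 3 and 0.52 without D150L150 replicate 2. Krt1, the first keratin of differentiating keratinocytes, was at 79.7, 1091 and 291 FPKM against 1165, 513 and 932, and its interval of −0.72 to 3.68 bounded little. Wound-activated keratinocyte genes had 13 of 16 negative differences and a median of −0.36, which was 0.12 without D100L150 replicate 1 and 0.02 without D150L150 replicate 3. Krt6b, a keratin of activated epidermis whose near-identical copy Krt6a may share reads with it, was at 2136, 1405 and 1437 FPKM in D100L150 and at 1513, 1278 and 893 in D150L150 (−0.44 ± 0.45). D15L150 flaps had 880.5 ± 274 FPKM of Krt6b and Control flaps 207 ± 122 (SD, n = 3 each).

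All 15 sebaceous gland genes had positive differences with a median of 1.04, 0.65 without D100L150 replicate 1 and 0.45 without D150L150 replicate 3, and 0 passed the test. Scd1, a fatty acid desaturase of sebocytes and fat cells, was at 15.2, 178 and 50.7 FPKM in D100L150 and at 143, 89.8 and 469 in D150L150 (1.79 ± 1.06). Mgst1, a glutathione transferase, was at 42, 108 and 67.3 against 97.6, 88.3 and 163 FPKM (0.72 ± 0.33, unadjusted p = 0.0439). D100L150 replicate 1 was the lowest and D150L150 replicate 3 the highest library for both genes, and the remaining 4 overlapped.

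Of the 13 hair follicle genes tested from 20 listed, 12 were positive with a median of 0.51, or 0.15 without D150L150 replicate 3. Krt79, a keratin of the upper follicle and sebaceous duct (chromosome 15, 101929332 to 101940324), was at 7.55, 404 and 93.7 FPKM against 206, 160 and 1321 (2.36 ± 1.31). Lgr5, a follicle stem cell receptor, was at 0.139, 2.58 and 0.382 against 2.21, 0.886 and 6.76 FPKM (1.02 ± 0.47, unadjusted p = 0.0476). Krt15, a keratin of the follicle bulge listed here with the basal genes, was at 9.63, 201 and 43.1 against 203, 83.5 and 618 FPKM. In each of the 3 the order of libraries was the same as for Scd1 at both ends.

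WNT and hedgehog genes, which act in follicle growth, had 18 of 19 positive differences, a median of 0.27 and 4 members without overlap, all higher in D150L150 (beside 4.39% of all genes): Wnt3, Wnt4, Wnt10a and Gli1. Wnt10a, a ligand, was at 4.36, 6.76 and 4.25 FPKM against 8.07, 8.09 and 10.5 (0.7 ± 0.31, unadjusted p = 0.0367). Gli1, a transcriptional target and effector of hedgehog signalling, was at 0.128, 0.836 and 0.369 against 1.22, 0.882 and 1.69 FPKM (0.66 ± 0.25, unadjusted p = 0.0176). With voom the differences of Wnt3 and Wnt4 were 1.12 ± 1.05 and 0.29 ± 0.35 (SE). Sfrp1, a secreted WNT inhibitor, overlapped (0.77 ± 0.38). The hair follicle level was also highest in D150L150 replicate 3, at 3.6, and lowest in D100L150 replicate 1, at 1.84, and its part in the WNT values was not tested.

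**Figure D4:**
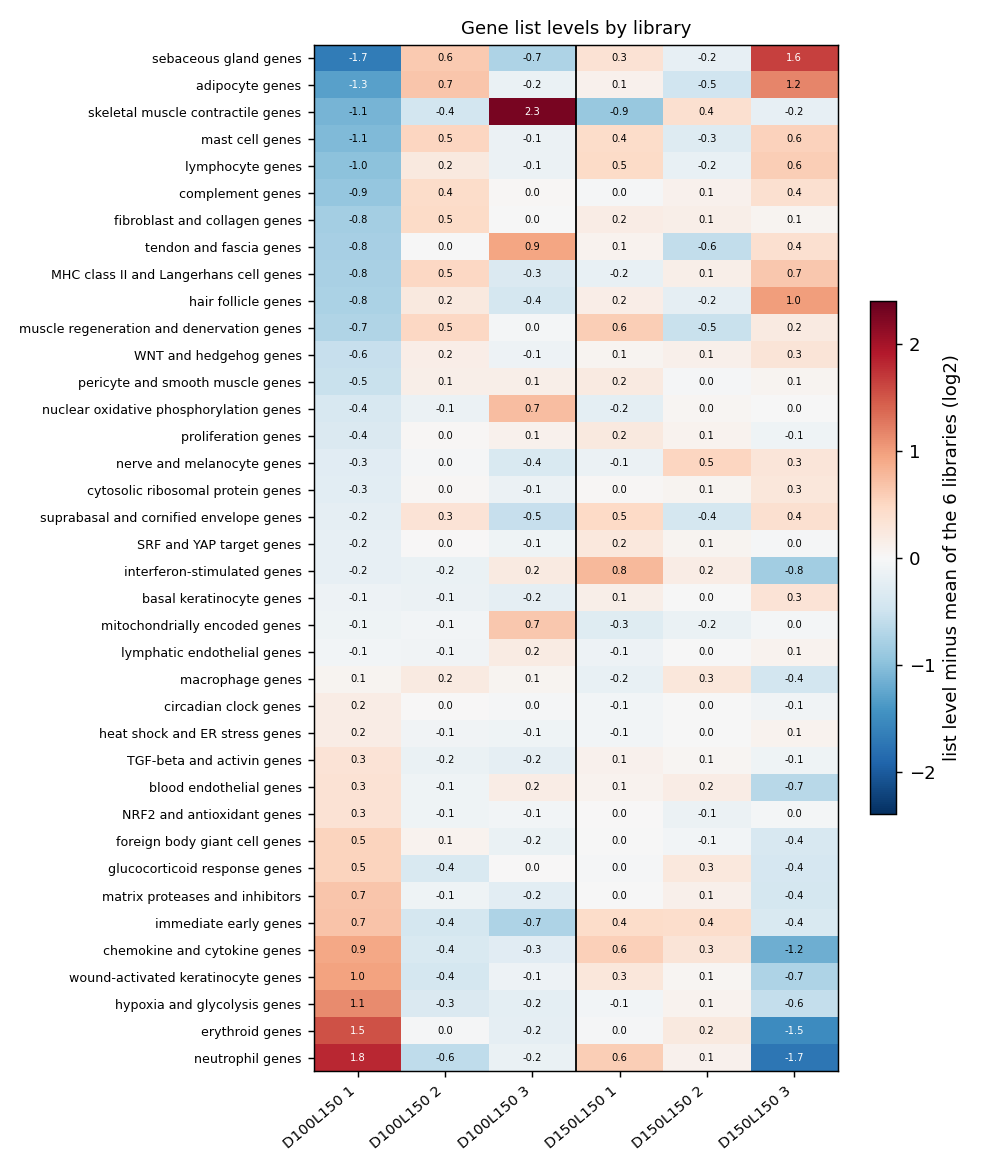
Level of each gene list (mean log2(FPKM + 1) over its tested genes) in the 6 libraries, shown as the deviation from the list's mean over them. D100L150 replicate 1 and D150L150 replicate 3 lie at opposite ends for sebaceous genes, at 2.09 and 5.42, and for neutrophil genes, at 7.72 and 4.18.

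Adipocyte genes gave 12 positive differences of 15 and a median of 0.49, which was 0.03 without D100L150 replicate 1 and 0 without D150L150 replicate 3. Of 8 mast cell genes 6 were positive and 2 negative, with differences from −1.02 to 1.45. Their median was 0.49, or 0.08 without D100L150 replicate 1 and 0.16 without D150L150 replicate 3. The highest was Mcpt4, a mast cell chymase, at 0.914, 39.3 and 12.9 FPKM in D100L150 and at 29.2, 10.9 and 60.3 in D150L150 (1.45 ± 0.93). The D100L150 values other than 0.914 lay inside the D150L150 range.

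All 12 lymphocyte genes had differences at or above 0, with a median of 0.5, or 0.2 without D100L150 replicate 1. Cd3e and Cd3g, signalling chains of the T cell receptor, were the 2 members without overlap, beside 4.39% of all genes. Cd3e was at 0.144, 0.765 and 0.639 FPKM against 1.45, 0.903 and 2.21 (0.73 ± 0.27, unadjusted p = 0.0168), from 7, 33 and 28 fragments in D100L150 and 69, 45 and 105 in D150L150. Cd3g was at 0.823, 3.89 and 2.71 against 4.6, 4.02 and 7.97 FPKM (0.98 ± 0.48). In both, the lowest D150L150 library lay close to the highest D100L150 library.

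Neutrophil genes pointed the other way, with 10 of 10 negative and a median of −0.67, and that median was 0.01 without D100L150 replicate 1 and 0 without D150L150 replicate 3. Retnlg, a neutrophil granule product, was at 79.8, 19.2 and 13.5 FPKM in D100L150 and at 24.6, 19.3 and 3 in D150L150 (−1.17 ± 1.2). Of 21 macrophage genes 15 were negative, with a median of −0.14, or −0.4 without D150L150 replicate 2 and −0.06 without D100L150 replicate 2. The 6 positive ones were C1qa (0.59), Cx3cr1 (0.44), C1qc (0.4), C1qb (0.36), Adgre1 (0.25) and Csf1r (0.03). Cd68, a lysosomal macrophage marker, did not overlap at 225, 271 and 253 against 216, 214 and 165 FPKM (−0.33 ± 0.2). Chil3 was the second such member, beside 1.22% of all genes, at 52.8, 41 and 44.8 against 29.8, 36.5 and 28.5 FPKM. Arg1, an arginase of wound macrophages, was at 1754 FPKM in D100L150 replicate 1 and at 89 to 304 in the other 5 libraries.

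Of 11 foreign body giant cell genes, 9 were negative with a median of −0.46, or −0.12 without D100L150 replicate 1, and Itgb2 was the 1 member without overlap, beside 1.22% of all genes. Dcstamp and Ocstamp, which drive macrophage fusion, were under the FPKM filter. Ctsk, a collagen-cleaving cathepsin of giant cells, osteoclasts and fibroblasts, had the opposite sign, at 50, 234 and 60.8 FPKM against 150.2, 102 and 378 (1 ± 0.56). Mmp12, the macrophage elastase, was at 146, 35.8 and 32.4 against 14.4, 35.4 and 20.1 FPKM (−1.31 ± 0.53, unadjusted p = 0.026), with D100L150 replicate 1 far above the rest.

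All 18 blood endothelial genes had negative differences with a median of −0.25, or −0.03 without D150L150 replicate 3, 0 passed the test and none was without overlap. Pecam1, the endothelial junction receptor, was at 101, 50.3 and 69.1 FPKM in D100L150 and at 61.3, 68.9 and 29.3 in D150L150 (−0.49 ± 0.44). The endothelial level was lowest in D150L150 replicate 3, at 3.29, against 3.84 to 4.29 in the other 5. Pericyte and smooth muscle genes had 11 of 14 positive differences and a median of 0.22, or 0.07 without D100L150 replicate 1. Cnn1, a smooth muscle calponin, was at 0.648, 2.28 and 1.47 FPKM against 3.66, 1.54 and 3.06 (0.62 ± 0.28, unadjusted p = 0.0426).

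In the matrix lists Fn1 stood out from the collagen genes by its sign. It encodes fibronectin, an early wound matrix protein, and was at 531, 312 and 303 FPKM in D100L150 and at 199.9, 272 and 106 in D150L150 (−1.04 ± 0.48, unadjusted p = 0.05), without overlap. Of 23 fibroblast and collagen genes 20 were positive, with a median of 0.31, or −0.07 without D100L150 replicate 1. Lum, a collagen-binding proteoglycan, was at 30.5, 262 and 114 against 192, 125 and 346 FPKM (1.05 ± 0.59). Postn, a matrix protein of activated fibroblasts, was at 59.2, 622 and 239 against 398, 297 and 558 FPKM (0.96 ± 0.61). D100L150 replicate 1 was the lowest library for both.

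Among 16 tested SRF and YAP target genes, which respond to actin tension and cell stretch, 10 were positive, a share near the 61.6% of all genes. The median was 0.29, or 0.13 without D100L150 replicate 1. The lowest difference of the list, −0.73, was that of Ankrd1. Amotl2, a YAP target and regulator at cell junctions, was at 16.3, 16 and 14.9 FPKM in D100L150 and at 21.2, 22.9 and 20.2 in D150L150. Its difference was 0.42 ± 0.17 (95% interval 0.06 to 0.78, unadjusted p = 0.0254), and it was the 1 member of 16 without overlap, a share near the 4.39% of all genes. For TGF-beta and activin genes 14 of 17 intervals lay within 2-fold and the median was 0.07, or −0.05 without D100L150 replicate 3 and 0.21 without D100L150 replicate 1.

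Skeletal muscle contractile genes had 24 of 25 negative differences and a median of −0.47, and none had an interval within 2-fold. Acta1, skeletal actin, was at 1105, 946 and 4225 FPKM in D100L150 and at 731, 1374 and 993 in D150L150 (−0.71 ± 0.61). Acta1 means in the other 4 groups ran from 2161 to 3910.5 FPKM, above the D100L150 mean of 2092 and the D150L150 mean of 1033. The list median was 0.4 without D100L150 replicate 3 and −1.14 without D100L150 replicate 1, so its sign was set by 1 library. Ryr1, the muscle calcium release channel, was at 38.5 FPKM in D100L150 replicate 3 and at 5.22 to 11.1 in the other 5. Embryonic myosin Myh3 ran from 2.25 to 81.7 FPKM within D100L150 alone, and perinatal myosin Myh8 from 0.375 to 61.6.

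Of the 13 mitochondrially encoded genes 12 were negative, with a median of −0.32. It was −0.02 without D100L150 replicate 3, −0.43 without D100L150 replicate 1 and −0.45 without D150L150 replicate 3. ND6, a complex I subunit gene, did not overlap at 3.73, 1.9 and 1.87 FPKM against 1.48, 0.88 and 1.23 (−0.64 ± 0.36, unadjusted p = 0.0982). These values rest on few fragments, 62, 28 and 28 in D100L150 and 24, 15 and 20 in D150L150. ND6 lies on the strand opposite to the rest of the 13, and whether counting used strand is not given in the sources used here. The level of these 13 genes was highest in D100L150 replicate 3, at 8.92, the library with the highest muscle level. Nuclear oxidative phosphorylation genes had a median of −0.06, or 0.21 without D100L150 replicate 3 and −0.25 without D100L150 replicate 1. Of their 21 intervals 18 lay within 2-fold. The muscle isoforms Cox6a2, Cox8b and Cox7a1 had differences of −0.86, −0.82 and −0.83, which were 0.14, 0.25 and 0.28 without D100L150 replicate 3.

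Hypoxia and glycolysis genes had 19 of 19 negative differences with a median of −0.34, which was 0.04 without D100L150 replicate 1. Bnip3, a mitophagy receptor induced by low oxygen, was at 263, 60.2 and 79 FPKM in D100L150 and at 81.8, 80.2 and 47.7 in D150L150 (−0.66 ± 0.44). Apart from 263 in that library, the values ran from 47.7 to 81.8 FPKM. Erythroid genes, which mark blood in the tissue, had a median of −1.09, and −0.37 without either that library or D150L150 replicate 3. Hbb-bs, a beta-globin gene with near-identical copies that may share its reads, was at 1512, 389 and 337 against 351, 518 and 93 FPKM.

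The most tightly measured lists were those of growth. All 19 proliferation genes had an interval within a 2-fold difference, against 82.6% of all genes, and their differences ran from 0.01 to 0.29 with a median of 0.14, or 0 without D100L150 replicate 1. Mki67, a marker of cycling cells, was at 6.48, 11.8 and 11 FPKM in D100L150 and at 12.8, 12.3 and 10.4 in D150L150 (0.29 ± 0.21, 95% interval −0.16 to 0.74). All 18 cytosolic ribosomal protein genes were positive with a median of 0.25, 17 had an interval within 2-fold, and 8 did not overlap, beside 4.39% of all genes. Rplp1, a protein of the ribosomal stalk, was at 2127, 3076 and 2727 FPKM against 3086, 3218 and 3578 (0.33 ± 0.2, unadjusted p = 0.124). The level of the list was lowest in D100L150 replicate 1, at 9.4, and highest in D150L150 replicate 3, at 9.93. Its genes share these libraries and are not independent, and reads of ribosomal protein genes can also fall on their processed pseudogenes. Heat shock and ER stress genes had 13 of 14 intervals within 2-fold and a median of −0.06, or 0.06 without D100L150 replicate 1.

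**Figure D5:**
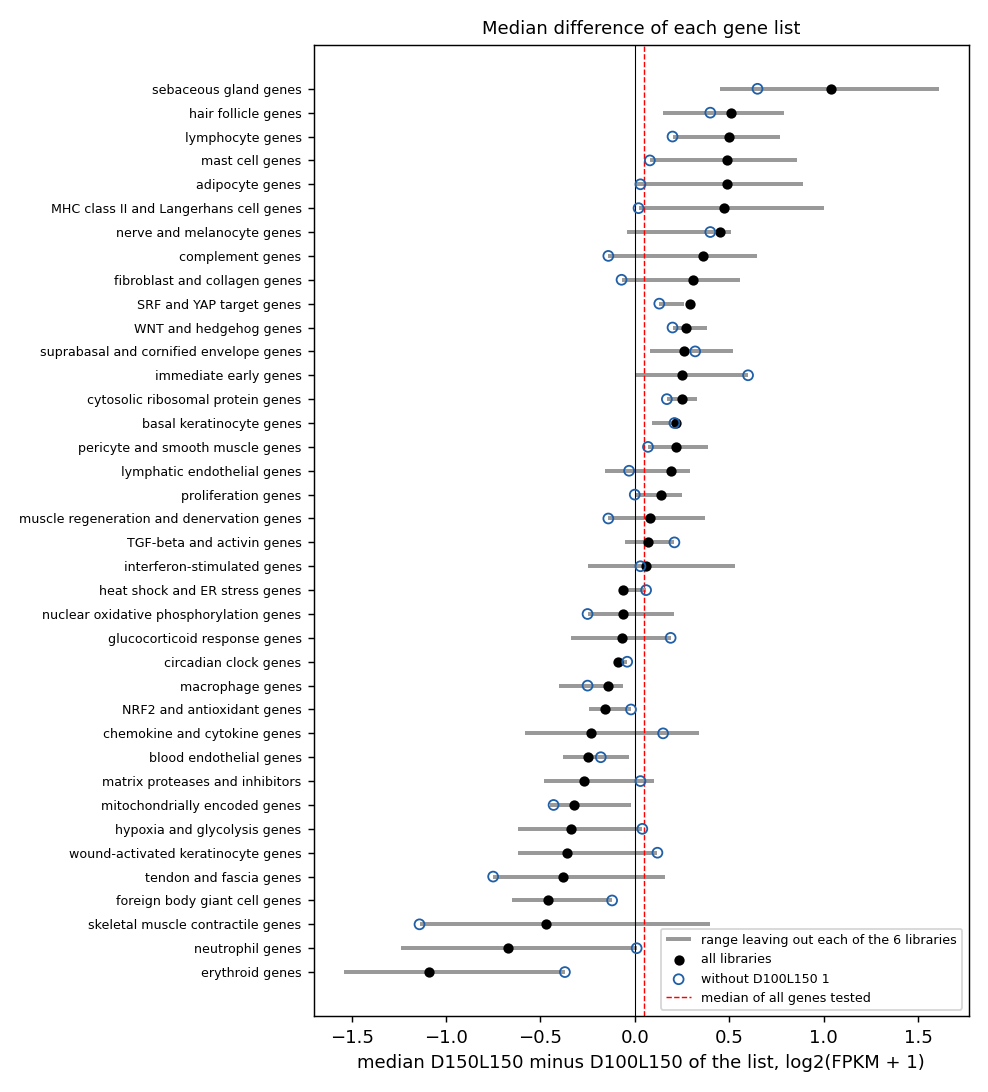
Median log2 difference (D150L150 minus D100L150) of each of 38 gene lists with all libraries (filled points) and without D100L150 replicate 1 (open points); grey bars span the medians with each of the 6 libraries left out, and the dashed line is the median of all genes, 0.05. Medians of neutrophil and of hypoxia and glycolysis genes move from −0.67 to 0.01 and from −0.34 to 0.04, and 21 of the 38 are positive with all libraries.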

How the data were processed

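Per the labels' protocols, skin RNA came from a TRIzol extraction and went into VAHTS Universal V6 libraries. The authors deposited 1 table of FPKM per gene and library. Tools named in the submitters' processing notes are fastp, HISAT2, HTSeq, DESeq2 and R 3.2.0, with the build mm10. How FPKM was computed from the counts is not given in the sources used here. Values were taken as deposited, a pseudocount of 1 was added, and genes had to reach 1 FPKM in 3 or more of 18 libraries. All 18 libraries, with 1 mean per group, entered a limma 3.58.1 fit (R 4.3.3, eBayes with trend and robust settings, checked on simulated data). D150L150 minus D100L150 was tested with Benjamini-Hochberg adjustment over all tested genes at 0.05, so the other 4 groups contribute to the variance. The FPKM values of a library are whole multiples of 1 fragment's worth, which gave the fragment numbers and depths.

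The comparison and the gene lists were chosen with earlier results of these data known. Named genes are those with the smallest unadjusted p among genes whose libraries do not overlap and whose mean FPKM reaches 1 in a group, up to 15 per direction, and the 3 members of each list with the smallest p. Krt14, Trp63, Wnt3, Wnt4 and Chil3, and members given to show opposite signs within a list, were named after their values were seen. An interval within 2-fold is a 95% interval between −1 and 1 on the log2(FPKM + 1) scale. Library levels are means of log2(FPKM + 1) over a list. Alternatives covered the pseudocount, the filter, the scaling, the libraries fitted, a replicate block, voom, a muscle covariate and leaving out each library. Gene and promoter positions are from RefSeq GRCm38.p6, the same assembly as mm10.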

Additional observations from a re-analysis of the deposited data

How the results depend on the processing

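With each of the 17 alternatives 0 genes were called. Unadjusted p-values under 0.05 numbered 305 with a pseudocount of 0.1, 903 of 27743 genes with no filter, 271 of 12338 with the filter on the 6 libraries, 237 on the TPM scale, 133 with the 6 libraries alone and 329 when each library's contractile gene level was a covariate. Quantile scaling gave 92 higher and 110 lower, and median centring 98 higher and 116 lower, against 231 and 57. The replicate block also called 0 genes (266 at an unadjusted p under 0.05 with 18 libraries, 112 with the 6). Same-numbered libraries of the 2 groups had correlations of deviations from the group means of 0.39, −0.64 and 0.02. Differently numbered libraries had −0.53 to 0.63. The labels do not say whether equal numbers mark a pair. These correlations cannot settle it, since the deviations of a group's 3 libraries sum to 0. Positive list medians numbered 18 to 23 of 38 over all settings. With a pseudocount of 0.1 and with voom the medians were 1.69 and 1.73 for sebaceous gland genes (1.04 before), 1.03 and 1.15 for lymphocyte genes (0.5), and 0.92 and 1.02 for nerve and melanocyte genes (0.45). With voom they were 0.96 for mast cell genes (0.49) and 0.61 for WNT and hedgehog genes (0.27). With no filter the median was 0.11 for hair follicle genes (0.51) and −0.18 for foreign body giant cell genes (−0.46). The muscle covariate, which removes that level, took the contractile median to 0.02. Of the 76 genes followed through the settings, 6 changed sign in a fit that left out 1 library: over the 6 such fits Myh3 ran from −0.04 to 2.3, Myh8 from −0.06 to 2.69, Ryr1 from −1.09 to 0.15, Cox6a2 from −1.48 to 0.14, Cox8b from −1.44 to 0.25 and Cox7a1 from −1.68 to 0.28. Without D100L150 replicate 1 the former 2 turned negative, and without D100L150 replicate 3 the others turned positive. With 3 libraries a group, the median 95% interval of ± 0.37 limits what could be seen.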

Other observations

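The remaining lists also held no called gene. Complement genes had 9 of 14 positive differences, a share near the 61.6% of all genes, and a median of 0.36 (−0.14 without D100L150 replicate 1). C4b, a component of the classical pathway, was at 5.7, 43.7 and 32.4 FPKM in D100L150 and at 28.8, 38.4 and 63.6 in D150L150. MHC class II and Langerhans cell genes had 7 of 9 positive and a median of 0.47 (0.02 without D100L150 replicate 1). Cd207, the Langerhans cell lectin, was at 0.367, 2.46 and 0.996 against 1.46, 3.22 and 5.01 FPKM. Chemokine and cytokine genes had 19 of 29 negative and a median of −0.23 (0.15 without D100L150 replicate 1 and 0.34 without D150L150 replicate 3). Ccl11, an eosinophil chemokine, was at 3.92 FPKM in D100L150 replicate 1 and at 19.5 to 24.2 in the other 5 libraries.

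Matrix proteases and inhibitors had a median of −0.27, and 0.03 without D100L150 replicate 1 or 0.1 without D150L150 replicate 3. Tendon and fascia genes stood at −0.38, and at 0.16 without D100L150 replicate 3 or 0.07 without D150L150 replicate 2. Nerve and melanocyte genes stood at 0.45, and at −0.04 without D150L150 replicate 2. The lymphatic endothelial median of 0.19 was −0.03 without D100L150 replicate 1, −0.09 without D100L150 replicate 2, −0.04 without D150L150 replicate 2 and −0.16 without D150L150 replicate 3. Muscle regeneration and denervation genes stood at 0.08, and at −0.14 without D100L150 replicate 1 or −0.12 without D150L150 replicate 1. Interferon-stimulated genes stood at 0.06, and at −0.25 without D150L150 replicate 1 or 0.53 without D150L150 replicate 3. Glucocorticoid response genes stood at −0.07, and at 0.19 without D100L150 replicate 1 or 0.14 without D150L150 replicate 3. NRF2 and antioxidant genes had a median of −0.16, and −0.02 without D100L150 replicate 1. Circadian clock genes had a median of −0.09, from −0.1 to −0.04 with 1 library left out, and 11 of 14 intervals within 2-fold. Hmox1, the heme-degrading NRF2 target, was at 1009, 428 and 592 FPKM in D100L150 and at 544, 384 and 238 in D150L150 (−0.79 ± 0.54).

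A difference beyond 1 together with no overlap between the groups was met by 8 genes, chosen after their values were seen. Fosb, Nmnat1, Oas1f and Ccn5 were higher in D150L150, and Ceacam1, Itgb2, Fn1 and Nfe2 lower. Oas1f, of an antiviral enzyme family with similar copies, was at 0.337, 13.8 and 8.66 FPKM in D100L150 and at 16.8, 14.2 and 19.4 in D150L150. Nfe2, a factor of erythroid cells and platelets, was at 11, 1.89 and 1.8 against 1.46, 1.76 and 0.575 FPKM. The extremes of all differences were Krt77, a keratin of sweat ducts and epidermis, at 3.18 and Ppbp, a platelet chemokine, at −1.89. Krt77 was at 0.213 FPKM in D100L150 replicate 1 and at 60.6 to 285 in the other 5 libraries, and Ppbp at 1423 in that library and at 8.03 to 235 in the others.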
